A study of Mus musculus with 9 samples.

Results

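The long 5' fragments of proline tRNAs were described in 9 small RNA libraries of the mouse RPE-choroid-sclera complex, the tissue behind the retina made of the retinal pigment epithelium (RPE), the vascular choroid and the fibrous sclera. The fragments were the rows of the deposited table that the authors classed as tRF-5c (from the 5' end into the anticodon stem or loop) or tiRNA-5 (from the 5' end to the anticodon) and that carried a nuclear proline tRNA in their name. There were 8 such fragments among 200 listed, 5 tRF-5c and 3 tiRNA-5, out of 102 nuclear fragments of these classes. The rule uses the class and the name of a fragment, not its values, but it was set with earlier results of these data known.

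The libraries came from C57BL/6 mice in 3 groups of 3. The controls were complexes of mice without laser, and their age is not given in the sources used here. The other groups were taken at day 3 and at day 7 after laser burns (532 nm, 110 mW, 100 ms) in mice of 6 to 8 weeks, a model in which choroidal vessels grow through breaks in Bruch's membrane. All groups shared the same RNA treatment before ligation, which opens charged and cyclic phosphate 3' ends, phosphorylates 5' ends and removes the base methylations m1A and m3C. The labels do not say whether a complex is 1 eye or a pool, nor whether the 3 complexes of a group came from separate animals, so the p-values measure how far these samples spread, and that spread may be technical. The table holds no mRNA, so the tissue could not be checked by marker genes. In whole tissue, fewer cells of a type and less RNA per cell cannot be told apart.

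Mapped reads ranged from 1204173 to 2155977 per library. The 200 listed fragments held 75.7% to 76.0% of them in the controls, 56.0% to 62.1% on day 3 and 75.3% to 78.6% on day 7, so the day 3 libraries stood apart in this share, and changes at day 3 depend on how libraries are scaled. The 8 proline fragments had from 5 to 2063 reads each per library.

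Transfer RNAs carry amino acids to the ribosome, and tRNA Pro reads the proline codons. Under stress, ribonucleases such as angiogenin cut mature tRNAs in the anticodon loop, the unpaired stretch that holds the anticodon, which leaves a 5' and a 3' piece. In human cells the 5' piece of tRNA Pro has been found on ribosomes, where it slows translation.

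The fragments derive from 4 proline tRNA sequences named in the deposited alignments. They are shown whole because the place where each fragment ends decides which tRNA it can come from. They are written 5' to 3' in DNA letters, with the anticodon in capitals and the added CCA included:
tRNA-Pro-AGG-1-1: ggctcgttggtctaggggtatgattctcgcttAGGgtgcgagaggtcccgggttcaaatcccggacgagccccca
tRNA-Pro-CGG-1-1: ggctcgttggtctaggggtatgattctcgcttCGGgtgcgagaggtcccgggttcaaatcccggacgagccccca
tRNA-Pro-TGG-2-1: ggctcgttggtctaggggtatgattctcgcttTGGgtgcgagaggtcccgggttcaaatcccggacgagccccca
tRNA-Pro-TGG-1-1: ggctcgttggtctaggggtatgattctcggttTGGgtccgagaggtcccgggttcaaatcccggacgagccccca

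Each is 75 nt long, and positions are counted from 1 at the 5' end. The anticodon lies at 33 to 35, in a loop from 31 to 37 that is closed by a 5-pair stem of 26 to 30 with 38 to 42. tRNA-Pro-AGG-1-1 differs from tRNA-Pro-CGG-1-1 by A33C and from tRNA-Pro-TGG-2-1 by A33T, so these 3 tRNAs are identical outside the first anticodon base. tRNA-Pro-TGG-1-1 differs from tRNA-Pro-AGG-1-1 by C30G, A33T and G38C. Positions 30 and 38 form the last pair of the stem, next to the loop. In RefSeq's annotation of GRCm38.p6, the assembly behind mm10, 16 nuclear proline tRNA genes of 72 bp were found. They comprised 6 genes with anticodon AGG, 3 with CGG and 7 with TGG, on chromosomes 1, 3, 6, 7, 11, 13, 14, 17 and X. An example is n-TPagg2 at chr1:165641634-165641705, which lies near n-TPcgg2 at chr1:165642271-165642342. Which of these copies gave a fragment was not determined, since the tRNA sequences were not placed on single gene copies here.

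All 8 fragments start at the first base and share their first 29 bases. The endings that separate them are shown in capitals, from position 30 on:
tRF-1:30-Pro-AGG-1-M3: ggctcgttggtctaggggtatgattctcgC
tRF-1:32-Pro-AGG-1-M3: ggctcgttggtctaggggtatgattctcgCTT
tiRNA-1:33-Pro-CGG-1: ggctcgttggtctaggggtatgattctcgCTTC
tiRNA-1:33-Pro-TGG-2: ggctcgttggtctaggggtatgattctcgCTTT
tRF-1:32-Pro-TGG-1: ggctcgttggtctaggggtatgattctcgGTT
tiRNA-1:33-Pro-TGG-1: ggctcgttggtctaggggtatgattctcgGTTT

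Fragment names give the first and last base, then the tRNA, then the number of tRNA sequences matched (M3 for 3). The 29 nt fragment, tRF-1:29-Pro-AGG-1-M4, ends inside the stem and matches all 4 tRNAs. The 30 nt fragment ends on the last stem base, and the 31 nt and 32 nt fragments end in the loop before the anticodon. These last 3 match Pro-AGG-1, Pro-CGG-1 and Pro-TGG-2 alike, so the name Pro-AGG-1-M3 does not mean that the AGG tRNA alone gave them. The 33 nt fragments carry the first anticodon base and match a single tRNA each, as does the 32 nt fragment of Pro-TGG-1 through its base 30. A 33 nt fragment of Pro-AGG-1 was not analysed here. Each 33 nt sequence equals a 32 nt sequence plus 1 base, so a base added to a 32 nt fragment after cleavage would be counted as the 33 nt fragment, and this was not tested.

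In the untreated complexes, 4 of the 8 fragments carried most of the proline reads. Levels are given in CPM, the reads of a fragment scaled to a common number of mapped reads per library; a read stands for 1 fragment, so no scaling by length applies. The 31 nt Pro-AGG-1-M3 fragment averaged 248 ± 52.2 CPM (SD, n = 3), the 33 nt Pro-CGG-1 fragment 237 ± 64.2 CPM and the 32 nt Pro-AGG-1-M3 fragment 231 ± 26.8 CPM. These levels differed by less than the spread between the control libraries, so their order is not set. The 33 nt Pro-TGG-2 fragment followed with 103 ± 17.5 CPM. The other 4 lay lower, at 27.0 ± 5.02 CPM (30 nt), 23.8 ± 3.22 CPM (32 nt Pro-TGG-1), 11.9 ± 3.24 CPM (33 nt Pro-TGG-1) and 10.7 ± 4.16 CPM (29 nt). Among all 200 listed fragments the control means of the proline fragments ranked from 29 to 186. Summed, the 8 held 0.109% to 0.131% of the listed reads in the controls.

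**Figure D1:**
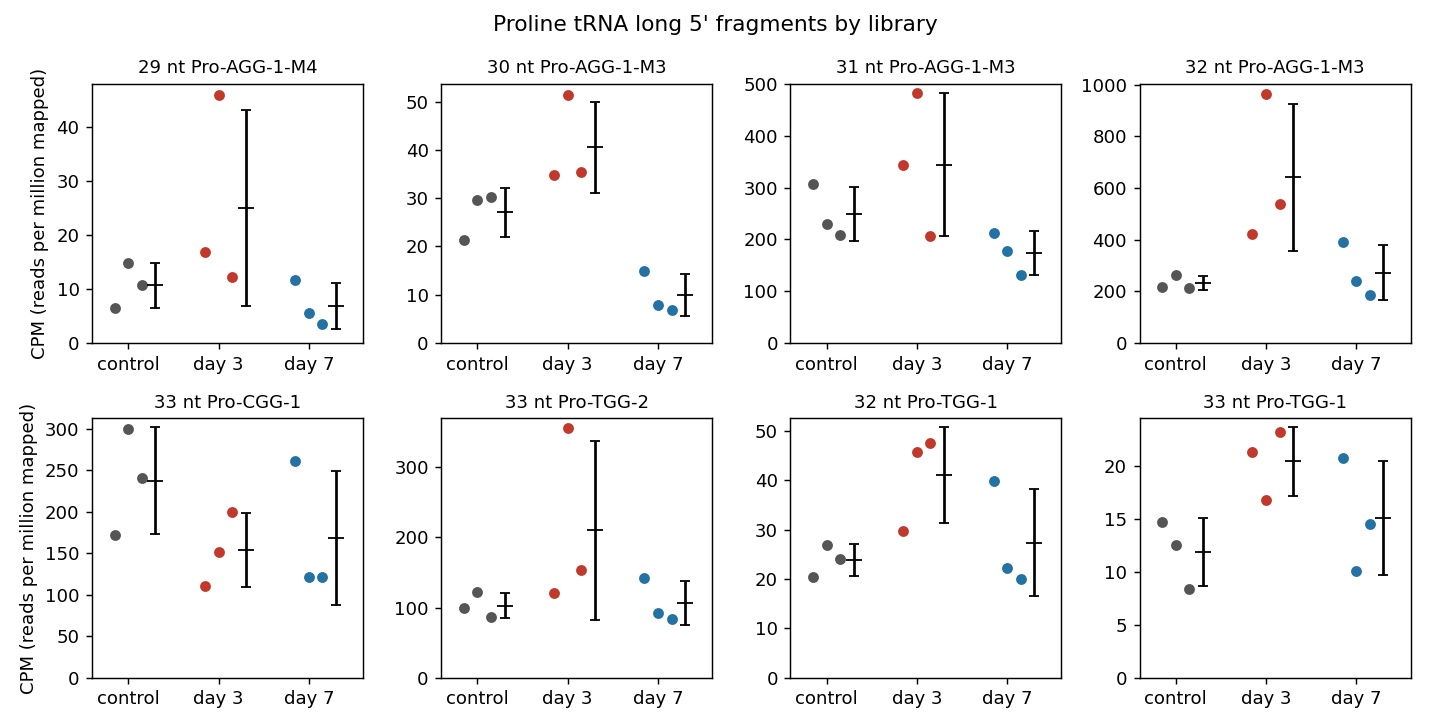
CPM of each of the 8 proline fragments (y axis, linear, from 0) in every control, day 3 and day 7 library; points are libraries, black bars the mean ± SD of 3. The 32 nt Pro-AGG-1-M3 fragment sits between 423 and 965 CPM at day 3, above all controls, and the 30 nt fragment sits between 6.90 and 14.9 CPM at day 7, below all other libraries.

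The first comparison asked how the fragments differed at day 3 after laser. The 32 nt Pro-AGG-1-M3 fragment, which ends just before the anticodon, rose. It had 217, 262 and 213 CPM in the controls and 423, 965 and 538 CPM at day 3 (replicates 1 to 3). The groups did not overlap, and replicate 2 was the highest. The log2 fold change was 1.44 (SE 0.388, adjusted p = 0.0111 by edgeR's quasi-likelihood test with Benjamini-Hochberg adjustment over 200 fragments). It missed the threshold of 0.05 without control replicate 3 (log2 fold change 1.37, adjusted p = 0.0676) and without day 3 replicate 2 (1.03, adjusted p = 0.0583).

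This was the only 1 of the 8 past the threshold, and 0 fell; across all 200 fragments 10% were called higher and 11.5% lower, so the share among the proline fragments is near the background. Of the 8, 7 had a log2 fold change above 0, with a median of 0.75 over the 8 against -0.04 over all 200. Over the 94 other nuclear long 5' fragments the median was 0.25, with 54 above 0 and 40 below. Medians were also above 0 for valine (0.81), alanine (0.59), glycine (0.54) and lysine (0.40) fragments. Those of glutamate (-0.04) and histidine (-0.48) were below 0. The 33 nt Pro-TGG-2 fragment had 99.7, 122 and 87.2 CPM in the controls and 121, 356 and 153 CPM at day 3, with a log2 fold change of 0.99 (adjusted p = 0.0671). The groups overlapped by a narrow margin, at day 3 replicate 1, and the fragment passed when scaled to the listed counts, with DESeq2, with a mean of at least 100 CPM, and without day 3 replicate 1 or 3. For the 29 nt fragment the log2 fold change was 1.20 (adjusted p = 0.0888), resting mostly on the 45.8 CPM of day 3 replicate 2 against 16.9 and 12.2 CPM in the others.

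Both Pro-TGG-1 fragments, the products of the tRNA with the altered stem pair, lay above the controls in every day 3 library without passing the test. The 32 nt fragment had 20.4, 26.9 and 24.1 CPM in the controls and 29.8, 45.8 and 47.6 CPM at day 3 (log2 fold change 0.75, adjusted p = 0.0888). The 33 nt fragment had 14.7, 12.6 and 8.35 CPM in the controls and 21.4, 16.8 and 23.2 CPM at day 3 (0.76, adjusted p = 0.184). It rests on few reads, 18 to 22 per control library and 36 to 43 per day 3 library. The 30 nt fragment behaved likewise, with 21.3, 29.7 and 30.1 CPM against 34.8, 51.4 and 35.4 CPM (0.55, adjusted p = 0.221). In all, 4 of the 8 had every day 3 library above every control library, against 22% of the 200 fragments, and 0 had every day 3 library below, against 19.5%. The 31 nt fragment had 307, 230 and 208 CPM in the controls and 344, 484 and 206 CPM at day 3, so the groups overlapped (0.43, adjusted p = 0.422).

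The 33 nt Pro-CGG-1 fragment alone among the 8 had a negative value at day 3. It had 172, 300 and 240 CPM in the controls and 110, 151 and 199 CPM at day 3 (log2 fold change -0.66, SE 0.362, adjusted p = 0.170). The groups overlapped, and the change did not pass the test.

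Scaling touched the level of the family as a whole. The summed CPM of the 8 was 859, 998 and 822 in the controls and 1101, 2115 and 1215 at day 3, with no overlap. Relative to the listed reads other than those of Gly-GCC tRNAs, which dominate these libraries, the 8 held 2.53%, 2.49% and 2.28% in the controls and 2.49%, 5.36% and 2.48% at day 3. On that measure day 3 replicates 1 and 3 lay within the control range and replicate 2 alone was above it. Relative to all listed reads, with Gly-GCC included, the 8 held 0.113%, 0.131% and 0.109% in the controls. At day 3 they held 0.177%, 0.363% and 0.217%, with no overlap, so the choice of reads to compare with decides this reading.

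**Figure D2:**
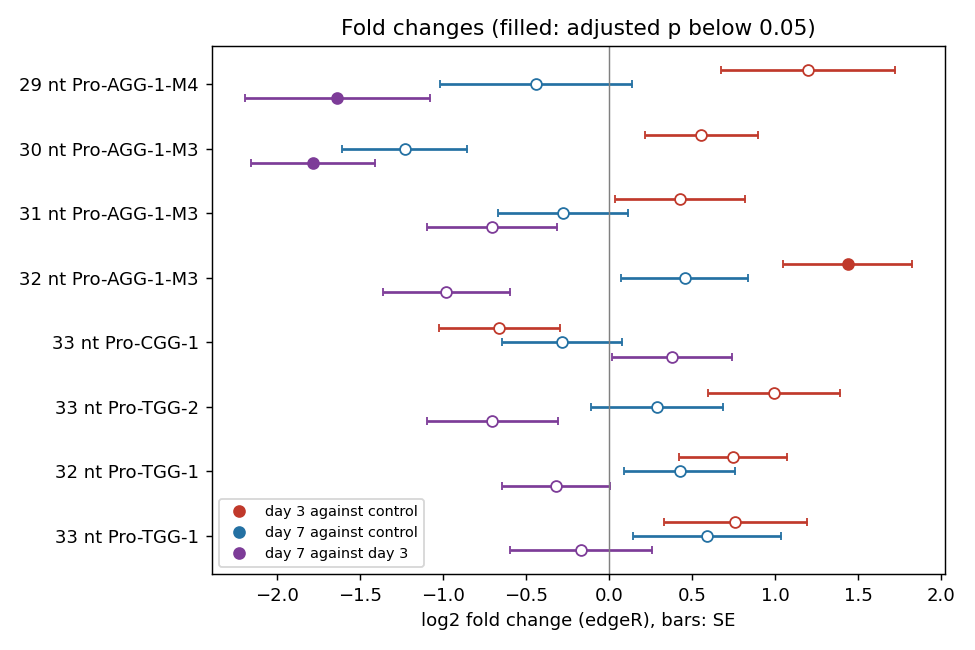
Log2 fold changes from edgeR (x axis) of the 8 proline fragments for the 3 comparisons; bars are standard errors and filled points passed an adjusted p of 0.05. The filled points are the 32 nt Pro-AGG-1-M3 fragment at day 3 against control (1.44) and the 29 nt and 30 nt fragments at day 7 against day 3 (-1.64 and -1.78).

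The second comparison asked whether the fragments differed at day 7. By edgeR 0 of the 8 passed the threshold, against 3.5% of all fragments called higher and 0.5% called lower. DESeq2 called 1 of the 8, and over all 200 fragments it called 7 higher and 5 lower. With limma-voom 0 of the 8 passed, against 7 higher and 0 lower of all 200. At an unadjusted p below 0.05 there was 1 of the 8, and the share of all fragments at that cut is not given here. That 1 was the 30 nt Pro-AGG-1-M3 fragment, which ends at the base of the loop. It had 14.9, 7.81 and 6.90 CPM at day 7, below each of the 21.3, 29.7 and 30.1 CPM of the controls. Its log2 fold change was -1.23 (SE 0.376, adjusted p = 0.0741), and the adjusted p fell below 0.05 with RLE factors (log2 fold change -1.37, adjusted p = 0.0349), with mapped totals without factors (-1.48, 0.0484), with scaling to the listed counts (-1.49, 0.0471), with DESeq2 (-1.38, 0.0375) and without control replicate 1 (-1.31, 0.0456). It was the only 1 of the 8 whose groups did not overlap, against 12% of all fragments that lay lower without overlap and 9% that lay higher.

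The other 7 fragments overlapped with the controls at day 7. Their log2 fold changes ran from -0.44 for the 29 nt fragment to 0.59 for the 33 nt Pro-TGG-1 fragment. The 32 nt Pro-AGG-1-M3 fragment had 390, 240 and 185 CPM, a log2 fold change of 0.46 (adjusted p = 0.543). Here replicate 1 was above all controls and replicate 3 below them. The 33 nt Pro-CGG-1 fragment had 261, 122 and 121 CPM (-0.28, adjusted p = 0.770). The median over the 8 was 0.01, against 0.09 over all 200 fragments.

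The third comparison set day 7 against day 3. The shortest members fell. The 30 nt fragment had 34.8, 51.4 and 35.4 CPM at day 3 and 14.9, 7.81 and 6.90 CPM at day 7, which lay far apart (log2 fold change -1.78, SE 0.372, adjusted p = 0.00292, edgeR). The 29 nt fragment had 16.9, 45.8 and 12.2 CPM at day 3 and 11.6, 5.58 and 3.45 CPM at day 7, so the groups were apart by a narrow margin (log2 fold change -1.64, SE 0.556, adjusted p = 0.0282, edgeR). These are small counts. At day 7 the 29 nt fragment had 14, 10 and 5 reads, the last with an exact 95% Poisson interval of 1.62 to 11.7 reads, which covers counting error only; the 30 nt fragment had 18, 14 and 10. The 29 nt result was lost without day 3 replicate 2 (log2 fold change -0.87, adjusted p = 0.231), without day 7 replicate 2 (-1.61, 0.0744), without day 7 replicate 3 (-1.41, 0.0762) and under limma-voom (-1.41, 0.0946).

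So 2 of 8 fell and 0 rose between day 3 and day 7, against 11.5% of all 200 called lower and 23% called higher. The 32 nt Pro-AGG-1-M3 fragment lay just outside the threshold (log2 fold change -0.98, adjusted p = 0.0525) with every day 7 library below every day 3 library. It passed with RLE factors, without factors, when scaled to the listed counts, with DESeq2, and without day 3 replicate 1 or 3. In all, 3 of the 8 lay lower without overlap and 0 higher, against 36% of all fragments apart in either direction and 21% lower. The 31 nt fragment had -0.70 (adjusted p = 0.160) and the 33 nt Pro-TGG-2 fragment -0.70 (adjusted p = 0.163). The Pro-TGG-1 fragments had -0.32 (32 nt, adjusted p = 0.446) and -0.17 (33 nt, adjusted p = 0.789). The 33 nt Pro-CGG-1 fragment had 0.38 (adjusted p = 0.420), the only value above 0 of the 8; scaled to the listed counts its sign turned (-0.27, adjusted p = 0.657). The median over the 8 was -0.70, against 0.15 over all fragments and -0.17 over the 94 other nuclear long 5' fragments. The 3 comparisons share libraries, so their values for a fragment are not independent of each other.

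Within each library, the proline reads were distributed over lengths differently after laser. These shares do not depend on the scaling of libraries; no test was run on them, since they were chosen with the fold changes known. Fragments of 32 nt held 27.7%, 28.9% and 28.9% of the proline reads in the controls, 41.1%, 47.8% and 48.2% on day 3 and 39.3%, 38.7% and 36.2% on day 7. The 3 groups were fully apart, with the controls lowest and day 3 highest. Fragments of 33 nt held 39.2% ± 5.30 in the controls, 26.2% ± 4.17 on day 3 and 36.9% ± 3.34 on day 7 (SD, n = 3), with day 3 below both other groups. Reads of Pro-AGG-1 can be among the shorter fragments but not among these, so the shares of 32 nt and 33 nt do not cover the same tRNAs. Fragments of 29 nt and 30 nt together held 4.22% ± 0.891, 4.403% ± 0.423 and 2.08% ± 0.312, with day 7 below both. The mean length did not separate the groups, at 32.02 ± 0.102 nt in the controls, 31.92 ± 0.122 nt on day 3 and 32.09 ± 0.0607 nt on day 7.

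**Figure D3:**
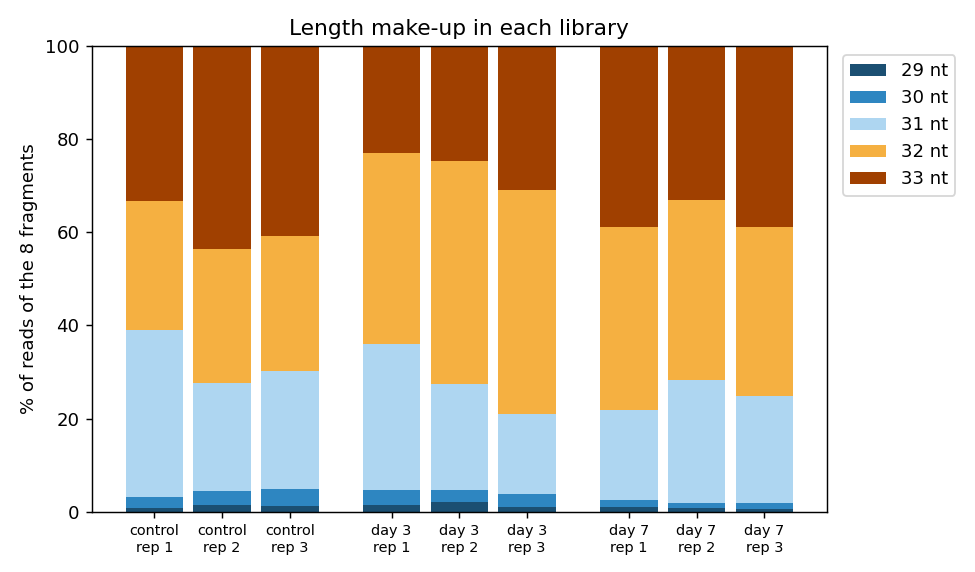
Share of each length (y axis, percent of the reads of the 8 proline fragments) in each of the 9 libraries. The 32 nt segment covers 27.7% to 28.9% in the controls, 41.1% to 48.2% on day 3 and 36.2% to 39.3% on day 7.

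For the Pro-AGG-1-M3 sequence the ratio of 32 nt to 30 nt reads compares fragments ending next to the anticodon with fragments ending on the last stem base. Whether these ends are where the tRNA was cut was not tested. This ratio was 10.2, 8.81 and 7.08 in the controls, 12.2, 18.8 and 15.2 on day 3 and 26.1, 30.7 and 26.8 on day 7. The ratio was thus highest at day 7, and no groups overlapped. On the log2 scale (0.5 added to each count) it exceeded the controls by 0.82 at day 3 and by 1.66 at day 7. At day 3 the 32 nt fragment was the one that rose, and at day 7 the 30 nt fragment had the lower level. The ratio of 32 nt to 31 nt reads was 0.71, 1.14 and 1.03 in the controls, 1.23, 2.00 and 2.61 on day 3 and 1.83, 1.35 and 1.42 on day 7, so both laser groups lay above the controls and overlapped each other.

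The direction was shared by most other tRNAs with both lengths. Of 14 other parent sequences (6 of glycine, 4 of glutamate, 2 of alanine, 1 each of histidine and lysine tRNAs), 11 had a higher 32 nt to 30 nt ratio at day 7 than in the controls, with a median difference of 1.18, and 7 did not overlap with the controls. Pro-AGG-1-M3 ranked 6 of 15 at day 7. The highest was Gly-CCC-2 (2.38) and the lowest Glu-TTC-1 (-0.20), with Glu-TTC-3 (1.23) and Ala-CGC-2 (1.13) around the median. At day 3, 10 of the 14 had a higher ratio, with a median of 0.36, and 1 of the 14 did not overlap with the controls (Gly-CCC-2, at 1.67). Pro-AGG-1-M3 ranked 3 of 15 there. For 32 nt against 31 nt, Pro-AGG-1-M3 ranked 2 of 17 at day 3 (difference 0.98, against a median of 0.35 in the 16 others) and 10 of 17 at day 7 (0.69, against 0.75). No test compared proline with the other parents.

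**Figure D4:**
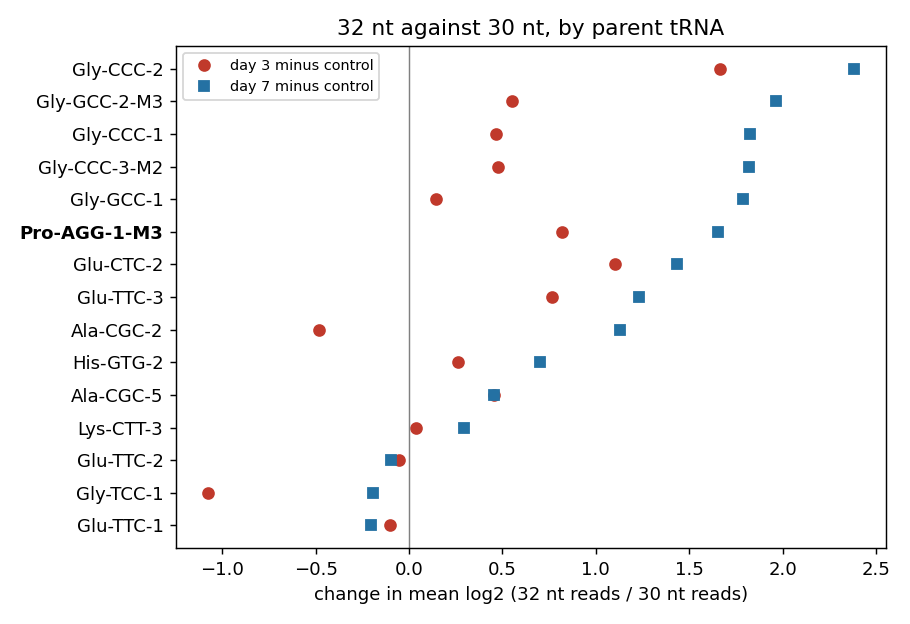
Difference from the control mean of the log2 ratio of 32 nt to 30 nt reads (x axis) for 15 parent tRNA sequences, day 3 as circles and day 7 as squares. Pro-AGG-1-M3, in bold, lies at 0.82 and 1.66, within the range of the others (-1.07 to 1.67 at day 3 and -0.20 to 2.38 at day 7).

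The other long 5' fragments, taken by length, showed where the 32 nt call stands. At day 3, 10 of 25 other 32 nt fragments rose and 0 fell (median log2 fold change 0.89). Of the other lengths, 2 of 10 fragments of 29 nt rose and 1 fell, 1 of 14 of 30 nt rose, 0 of 18 of 31 nt rose and 1 fell, and 1 of 5 of 33 nt rose. None of 6 fragments of 28 nt or 16 of 34 nt passed the test. At day 7 against day 3, 5 of 14 other 30 nt fragments fell and 0 rose (median -0.65). In that comparison 2 of 10 fragments of 29 nt fell and 1 rose, 5 of 18 of 31 nt fell and 3 rose, and 4 of 25 of 32 nt fell and 2 rose. For the remaining lengths, 1 of 6 of 28 nt fell, 2 of 5 of 33 nt rose, and 1 of 16 of 34 nt fell and 2 rose. The lengths were not tested against each other. Over all 94 other nuclear long 5' fragments, 14 rose and 2 fell at day 3, 7 rose and 1 fell at day 7, and 10 rose and 18 fell from day 3 to day 7. By amino acid, 4 of 15 valine, 4 of 10 lysine, 4 of 27 glycine and 2 of 21 glutamate fragments rose at day 3 (1 of the valine fragments fell). None of 8 alanine and 7 histidine fragments passed, though all 8 alanine values lay above 0 and all 7 histidine values below. From day 3 to day 7, 7 of 21 glutamate, 4 of 8 alanine, 3 of 27 glycine, 2 of 15 valine, 1 of 10 lysine and 1 of 3 aspartate fragments fell. Over the same time 5 glycine, 3 histidine and 2 valine fragments rose. Medians were then -0.88 for alanine, -0.74 for glutamate and 1.27 for histidine.

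The 33 nt fragments split the proline tRNAs by the first anticodon base, but Pro-AGG-1 had no 33 nt fragment among them. Shares of the 33 nt proline reads thus cover Pro-CGG-1, Pro-TGG-2 and Pro-TGG-1 alone. The proportions of Pro-CGG-1 and Pro-TGG-2 were different at day 3. tRNA-Pro-CGG-1-1 differs from tRNA-Pro-TGG-2-1 by C33T alone. The ratio of 33 nt Pro-CGG-1 reads to 33 nt Pro-TGG-2 reads was 1.72, 2.46 and 2.76 in the controls, 0.91, 0.42 and 1.30 on day 3 and 1.83, 1.32 and 1.44 on day 7. Every day 3 library was below every control and every day 7 library, while day 7 overlapped with the controls through replicate 1. Pro-CGG-1 held 66.9% ± 6.08 of the 33 nt proline reads in the controls, 41.8% ± 12.2 on day 3 and 57.0% ± 3.88 on day 7 (SD, n = 3). Pro-TGG-2 held 29.6% ± 4.65, 52.3% ± 14.1 and 37.7% ± 3.78. Pro-TGG-1 held the rest, 3.51% ± 1.43, 5.95% ± 2.63 and 5.32% ± 1.11, and its groups overlapped. This ratio was chosen after its values were seen and was not tested, and neither of its fragments passed the test alone.

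**Figure D5:**
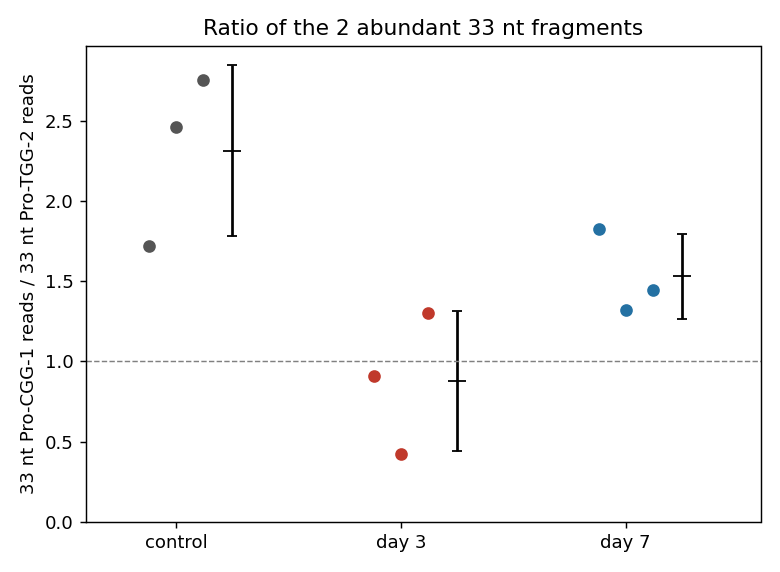
Reads of the 33 nt Pro-CGG-1 fragment divided by reads of the 33 nt Pro-TGG-2 fragment (y axis, linear) in each library; points are libraries, black bars the mean ± SD of 3, and the dashed line marks equal reads. Controls lie at 1.72 to 2.76, day 3 at 0.42 to 1.30 and day 7 at 1.32 to 1.83.

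Set against the 32 nt Pro-AGG-1-M3 fragment, from which they differ by 1 more base, the 33 nt fragments behaved unequally. The 32 nt fragment also matches Pro-AGG-1, which has no 33 nt fragment here. A change in the part from Pro-AGG-1 and a change in where fragments end therefore cannot be told apart. The 33 nt Pro-CGG-1 reads were 0.79, 1.15 and 1.13 times the 32 nt reads in the controls, 0.26, 0.16 and 0.37 times on day 3 and 0.67, 0.51 and 0.66 times on day 7. The groups were fully apart, with day 3 lowest. The 33 nt Pro-TGG-2 reads were 0.46, 0.47 and 0.41 times the 32 nt reads in the controls, 0.29, 0.37 and 0.28 times on day 3 and 0.37, 0.38 and 0.46 times on day 7. Here too day 3 lay below the controls, by a smaller margin, and day 7 overlapped with both. Pro-TGG-1 gave 9.35% ± 0.784 of all 32 nt proline reads in the controls, 6.42% ± 1.80 on day 3 and 9.18% ± 0.631 on day 7. Day 3 lay below both other groups by a narrow margin. Day 3 replicate 3 had 8.125%, against 8.51% in day 7 replicate 2 and 8.59% in control replicate 1. The Pro-TGG-1 ratio of 32 nt to 33 nt reads was 2.14 ± 0.750, 2.06 ± 0.663 and 1.84 ± 0.426, which did not separate the groups. The ratios and shares of this paragraph were not planned and were not tested.

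Across the 9 libraries the fragments fell into unlike patterns, given here as Pearson correlations of log2 CPM without a test, since the libraries fall into 3 groups and share their depth. The 32 nt Pro-AGG-1-M3 fragment and the 33 nt Pro-TGG-2 fragment varied most closely together (r = 0.92), followed by the 2 fragments of 32 nt (r = 0.89). The 33 nt Pro-CGG-1 fragment had negative values with each of the other 7, from -0.62 with the 31 nt to -0.20 with the 30 nt fragment. Among fragments of other tRNAs, those most like the 32 nt Pro-AGG-1-M3 fragment were the 32 nt tRF-1:32-Val-CAC-4 (r = 0.91), the 16 nt tRF-1:16-Gly-TCC-1 (0.89) and tRF-1:30-Lys-CTT-3 (0.82). The 32 nt Pro-TGG-1 fragment shared the first 2 of these, tRF-1:16-Gly-TCC-1 (0.97) and tRF-1:32-Val-CAC-4 (0.87), followed by tRF-1:32-Lys-CTT-2 (0.80).

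The 33 nt Pro-CGG-1 fragment was instead most like fragments from the 3' end of other tRNAs: tRF-54:75-Gly-TCC-1 (r = 0.90), tRF-53:74-Gly-CCC-2-M4 (0.89) and tRF-54:75-Ala-AGC-2 (0.83), all of class tRF-3b. The 33 nt Pro-TGG-2 fragment was most like 16 nt fragments, tRF-1:16-Ser-AGA-1-M3 (0.80), tRF-1:16-Ala-CGC-3-M3 (0.77) and tRF-1:16-Gly-TCC-1 (0.76). The 30 nt fragment was closest to tiRNA-1:34-Asp-GTC-2 (0.93), tRF-1:31-Glu-TTC-2 (0.85) and tRF-1:30-Ala-CGC-2 (0.84), and the 29 nt fragment to tRF-1:30-Ala-CGC-2 (0.87), tRF-1:29-Glu-TTC-3 (0.81) and tRF-1:29-Gly-GCC-2-M3 (0.77). For the 31 nt fragment the highest were tRF-1:30-Ala-CGC-5 (0.70), tRF-1:29-Gly-GCC-2-M3 (0.62) and tRF-1:29-Gly-GCC-1 (0.62). For the 33 nt Pro-TGG-1 fragment they were tRF-1:32-Gly-CCC-2 (0.83), tiRNA-1:34-Glu-TTC-3 (0.80) and tRF-1:32-Lys-CTT-3 (0.74).

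From the other end of the same tRNAs the table listed 2 fragments, of 18 nt and 17 nt, that end in the mature CCA and match all 4 proline tRNAs. The 18 nt tRF-58:75-Pro-AGG-1-M4 had 49.0, 53.7 and 62.6 CPM in the controls, 34.3, 50.5 and 66.5 CPM on day 3 and 49.0, 44.1 and 21.4 CPM on day 7. Its log2 fold changes were -0.18 at day 3 (adjusted p = 0.704) and -0.28 at day 7 (adjusted p = 0.765), although its day 7 libraries lay below all controls by a narrow margin. The 17 nt tRF-59:75-Pro-AGG-1-M4 averaged 28.8 ± 7.62, 26.1 ± 1.93 and 22.3 ± 10.9 CPM, with overlap throughout (log2 fold changes -0.18 and -0.17; adjusted p = 0.700 and 0.880). At day 7 against day 3 their log2 fold changes were -0.11 and 0.01 (adjusted p = 0.829 and 0.989). The 8 long 5' fragments had 11.8, 12.7 and 8.20 times the reads of these 3' fragments in the controls, 18.0, 28.4 and 12.9 times on day 3 and 13.0, 11.2 and 15.2 times on day 7. Day 3 lay above the controls in every library, and day 7 overlapped with both groups.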

How the data were processed

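The authors deposited, per the file headers, raw counts of reads per tRNA fragment and CPM, counts scaled to the mapped reads, in 9 libraries. The submitters' processing notes name FastQC, Bowtie, edgeR and mm10, with no versions or roles. Per the labels' protocols, PCR products of about 134 to 160 bp were cut from a gel, so other lengths are under-represented. Columns headed NC were read as the controls, the only labelled group without columns of its own name. In the table, 7 lines were empty; 200 fragments of 14 to 40 nt were used, and since the highest CPM of every fragment was 20.1 or more, rarer fragments were not analysed here.

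Count divided by CPM gave 1 mapped total per library, used as library size with TMM factors (0.749 to 1.14). edgeR 4.0.16 in R 4.3.3 fitted all 9 libraries by quasi-likelihood, with 1 coefficient for each group (common biological coefficient of variation 34.9%; filterByExpr removed 0 fragments). Two-sided F tests were adjusted by Benjamini-Hochberg over 200 fragments, threshold 0.05. The SE is the log2 fold change divided by the square root of F. CPM means and SDs are over 3 libraries; intervals and SDs cover no more than these samples.

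Every member and every other proline fragment was named, with the 3 fragments most correlated with each member (log2 CPM, prior count 2) and the parents with the highest, lowest and median length shift. The members and lists were chosen with earlier results of these data known; the ratios to 31 nt, between 33 nt fragments and to 3' fragments were added after values were seen. The code was tested on simulated counts. Same-numbered replicates were not paired: 2 of 9 pairs had a correlation of deviations over 0.1. Alternatives were RLE factors, no factors, listed counts as totals, DESeq2 1.42.0, limma-voom (limma 3.58.1), no filter, a mean of 100 CPM, 2-group fits, a replicate block and each library left out.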

Additional observations from a re-analysis of the deposited data

Results flagged for a closer look

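The effect at day 7 differed from the effect at day 3 for 2 of the 8 proline fragments, by the test of day 7 against day 3, which is the difference of both effects since they share the controls. Over all 200 fragments that test called 34.5% in either direction, so the count of 2 is no more than the background. For the 30 nt Pro-AGG-1-M3 fragment the log2 fold change against control was 0.55 at day 3 and -1.23 at day 7, a difference of -1.78 (edgeR adjusted p = 0.00292). For the 29 nt Pro-AGG-1-M4 fragment it was 1.20 and -0.44, a difference of -1.64 (edgeR adjusted p = 0.0282), which missed the threshold without day 3 replicate 2 (-0.87, adjusted p = 0.231).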

How the results depend on the processing

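The log2 fold changes of the 8 fragments in the 3 comparisons were recomputed under up to 18 alternatives, 420 values in all. Of these, 391 kept their direction and side of the threshold, 22 newly passed, 6 no longer passed and 1 reversed. The 391 overstate stability. The setting without a filter repeats the main fit, since the filter removed 0 fragments, so its values could not change. A library left out of the group outside a comparison reaches that comparison only through the shared spread and scaling, a weak check. The reversed value was the 33 nt Pro-CGG-1 fragment at day 7 against day 3, -0.27 when scaled to the listed counts. The cause of these differences was not tested. The calls in the same direction over all fragments tested are given in brackets. At day 3 against control, 1 fragment rose (20 of 200). There were 4 when scaled to the listed counts (49 of 200) and 2 with DESeq2 (33 of 200). With a mean of at least 100 CPM there were 2 of the 4 members then tested (18 of 70). With a library left out there were 0 to 3. The count was 0 without control replicate 3 (8 of 200) or day 3 replicate 2 (10 of 200). It was 2 without day 3 replicate 1 (18 of 200) and 3 without day 3 replicate 3 (24 of 200). At day 7 against control 0 fell (1 of 200). There was 1 with RLE factors (2 of 200) and 1 with mapped totals without factors (7 of 200). Scaling to the listed counts (8 of 200) and DESeq2 (5 of 200) also gave 1 each. With a library left out there were 0 to 1, with 1 without control replicate 1 (5 of 200). At day 7 against day 3, 2 fell (23 of 200). There were 5 when scaled to the listed counts (63 of 200) and 4 with DESeq2 (39 of 200). RLE factors gave 3 (35 of 200), mapped totals without factors 3 (39 of 200) and limma-voom 1 (22 of 200). With a mean of at least 100 CPM there was 0 (14 of 70), a filter that leaves out the 29 nt and 30 nt fragments. With a library left out there were 1 to 3. The count was 1 without day 3 replicate 2 (15 of 200), day 7 replicate 2 (19 of 200) or day 7 replicate 3 (25 of 200). It was 3 without day 3 replicate 1 (15 of 200) or day 3 replicate 3 (23 of 200). With the replicate block the counts stayed at 1 (20 of 200), 0 (1 of 200) and 2 (22 of 200).

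Scaling to the listed counts moved the log2 fold change of the fragments by a median of 0.40 at day 3, -0.28 at day 7 and -0.68 for day 7 against day 3 (median of the shift of each fragment). Calls over all fragments were then 49 higher and 14 lower at day 3 (20 and 23 by TMM), 7 and 8 at day 7 (7 and 1), and 9 and 63 for day 7 against day 3 (46 and 23); with RLE factors the last were 37 and 35. The mean lengths moved by less than 1 SD with 30 to 33 nt alone. Leaving out 1 of 3 libraries cannot move their mean by 1 SD of the 3, so that check could not fail and shows nothing. Depth limits the 29 nt and 30 nt fragments, which had 5 to 110 reads per library. It also limits the Pro-TGG-1 fragments, with 25 to 98 reads (32 nt) and 18 to 43 reads (33 nt) per library.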
